A study of Mus musculus with 5 samples.

Results

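Inhibitory neurons of the Adarb2 and Vip lineage were examined in nuclei of the mouse hippocampus. They were chosen by their RNA among 27681 nuclei with at least 1000 detected genes: a member had a mean standardised level of Gad1, Gad2 and Slc32a1 of at least 1, and a mean standardised level of Adarb2, Vip, Npas1 and Prox1 at least as high as that of Lhx6, Nxph1, Sst and Sox6. By that rule 756 nuclei were members, out of 28142 barcodes in all. The 1930 nuclei that passed the first threshold but had the higher Lhx6, Nxph1, Sst and Sox6 score are called the Lhx6 and Sst lineage.

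Nuclear RNA and open chromatin were read from the same nuclei with a droplet assay. The 5 libraries were labelled wild type, 5xFAD, and 5xFAD with an astrocyte, a neuron or a global knockout of MAGL. 5xFAD mice carry human familial Alzheimer's disease transgenes, and MAGL, encoded by Mgll, is the lipase that degrades the endocannabinoid 2-arachidonoylglycerol. Each genotype had 1 library, 4 libraries shared the 5xFAD background, none held a MAGL knockout without 5xFAD, and all 5 carried the same batch label. Age, number of animals and the driver of the cell-specific knockouts were not found in the labels. A genotype and its library cannot be told apart, so differences between libraries were not tested, and their intervals cover counting error only.

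Interneurons of this lineage arise largely in the caudal ganglionic eminence and include the Vip, the Cck and Sncg, and the Lamp5 and Id2 types. Many Vip interneurons inhibit other interneurons. Basket cells with cholecystokinin carry dense cannabinoid receptor CB1, encoded by Cnr1, on their terminals, where endocannabinoids from the postsynaptic neuron reduce GABA release and MAGL helps to end the signal.

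The sequences before 3 gene starts are shown because the Adarb2 and Sp8 promoters were more accessible in the members than in the Lhx6 and Sst lineage, as described below, and Vip, the other gene that gives the lineage its name, had no listed peak within 1000 bases of its start in any library. Each is the 250 bases before a RefSeq start in GRCm38.p6, on the forward strand, 5′ to 3′, with matches to the searched motifs in capitals.
Adarb2, chr13:8202616-8202865: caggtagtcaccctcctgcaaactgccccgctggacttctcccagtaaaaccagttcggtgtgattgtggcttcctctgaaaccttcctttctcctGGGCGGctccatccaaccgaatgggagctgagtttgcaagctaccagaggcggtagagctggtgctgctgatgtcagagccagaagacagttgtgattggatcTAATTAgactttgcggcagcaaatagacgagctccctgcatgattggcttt
Sp8, chr12:118846983-118847232: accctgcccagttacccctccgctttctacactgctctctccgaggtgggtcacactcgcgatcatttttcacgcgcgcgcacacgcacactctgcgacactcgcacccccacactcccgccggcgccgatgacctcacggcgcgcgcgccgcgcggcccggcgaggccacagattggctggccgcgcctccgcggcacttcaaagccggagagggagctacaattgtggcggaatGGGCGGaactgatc
Vip, chr10:5638968-5639217: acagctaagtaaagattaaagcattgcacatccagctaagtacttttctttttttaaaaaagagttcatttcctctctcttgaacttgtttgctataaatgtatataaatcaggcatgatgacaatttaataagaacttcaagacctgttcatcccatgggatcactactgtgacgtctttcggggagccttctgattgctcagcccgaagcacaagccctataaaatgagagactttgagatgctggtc
The motifs searched on both strands were TAATTA, the core of many homeodomain sites, GGGCGG, the GC box, CACGTG, an E-box, and TGACGTCA, the cAMP response element. TAATTA lay 51 to 46 bases before the Adarb2 start and was present in 4.84% of 32851 windows of this length from 27025 genes. GGGCGG lay 154 to 149 bases before the Adarb2 start and 14 to 9 bases before the Sp8 start, and was present in 32.7% of the windows. CACGTG (6.02% of windows) and TGACGTCA (1.55%) were in none of the 3 windows, and the Vip window held no match. Peaks overlapped the Adarb2 and Sp8 windows in all 5 libraries. No annotated exon lay in the 3 windows, and the Sp8 window, before 1 of its 3 RefSeq starts, lay inside the annotated gene. The matches are a description and were not tested as binding sites.

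The members numbered 120 in wild type, 134 in 5xFAD, and 195, 123 and 184 in the astrocyte-labelled, neuron-labelled and global-labelled MAGL-KO libraries, the order used for all values below. As shares of nuclei with at least 1000 genes they were 2.32% (exact Clopper-Pearson 95% interval 1.93 to 2.77), 2.62% (2.20 to 3.09), 3.23% (2.80 to 3.70), 3.07% (2.56 to 3.65) and 2.51% (2.16 to 2.89). The interval of the astrocyte-labelled library lay above that of wild type, and every other pair of intervals overlapped. Among inhibitory nuclei of both lineages the members made up 27.1% to 30.6%, with overlapping intervals. Members had a median of 16876 to 21433 unique molecular identifiers (UMIs, counted RNA molecules) per nucleus, and 3252861 to 4630470 UMIs per library. Just inside the first threshold, 55 nuclei with an inhibitory score of 1.0 to 1.1 had a median excitatory marker score of −0.17, and 51 nuclei just outside it, at 0.9 to 1.0, had −0.53, against −0.78 over all members.

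Some members carried RNA of other cells. In each library 17.9% to 25.1% of the members had UMIs of both Xist and Y-linked genes, with a median of 32853 to 52252 UMIs against 13497 to 18883 for the other members. The 5 excitatory neuron markers, all detected, summed to 184 to 277 CPM in the members (a gene's share of all UMIs of these nuclei in a library, on a scale common to all libraries) and to 1014 to 1092 CPM in nuclei with an excitatory marker score of at least 0.5, called excitatory nuclei here. Clustering the members gave 12 sub-clusters, of which 6 had no marker of another cell class among their 10 leading genes and a low excitatory marker score. These are called interneuron-led, although the leading genes of sub-cluster 6 held no listed interneuron marker either. In them the same sum was 11.6 to 26.6 CPM. That definition was set after the values were seen. Interneuron-led nuclei numbered 65, 89, 103, 62 and 94, or 54.2% of the members in wild type (44.8 to 63.3), 66.4% in 5xFAD (57.8 to 74.3) and 52.8%, 50.4% and 51.1% in the 3 MAGL-KO libraries (intervals from 41.3 to 60.0). Main differences between libraries are given for all members and for these nuclei. Doublets were not removed. No barcode was shared between members of different libraries, while 442 of 27696 distinct barcodes occurred in more than 1 library.

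The levels of the genes of the rule chose the members and are given as a description. Gad1, which makes GABA and lies at chr2:70553072-70602014 (mm10), had 209, 176, 207, 164 and 189 CPM in the members, against 5.65 to 11.03 CPM in excitatory nuclei and 214 to 244 CPM in the Lhx6 and Sst lineage. Gad2, the other GABA-synthesising enzyme, had 238 to 279 CPM in the members and 240 to 263 CPM in the Lhx6 and Sst lineage. Slc32a1, which loads GABA into vesicles, had 35.97 to 55.3 CPM.

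Adarb2 (chr13:8202866-8768747), a relative of the RNA-editing deaminases, had 13580, 12370, 11470, 9823 and 12410 CPM in the members and 697 to 1235 CPM in the Lhx6 and Sst lineage. It was lowest in the neuron-labelled library and highest in wild type. The transcription factors Npas1 and Prox1 had 69.5 to 84.0 and 80.3 to 107 CPM, against 8.34 to 10.4 and 23.5 to 34.9 CPM in the Lhx6 and Sst lineage. Lhx6, the transcription factor that names the other lineage, had 0.487 to 2.31 CPM in the members and 24.1 to 32.2 CPM there. Sst, the somatostatin precursor, had 67.9, 20.4, 27.9, 59.4 and 23.6 CPM in the members and 23.3, 14.0, 37.9, 57.0 and 17.1 CPM in excitatory nuclei. A Sst UMI was found in 42.5%, 26.1%, 35.9%, 52.9% and 23.4% of the members and in 43.8%, 24.5%, 34.5%, 60.9% and 28.3% of excitatory nuclei. The share of nuclei with a UMI was thus about the same in both. The CPM was higher in the members in every library but the astrocyte-labelled one, and by most in wild type.

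Vip (chr10:5639218-5647617), the vasoactive intestinal peptide, had 103, 128, 263, 189 and 80.6 CPM in the members. The astrocyte-labelled library was highest and the global-labelled one lowest; since Vip is a gene of the rule, this order is a description. A Vip UMI was found in 25.8%, 25.4%, 33.9%, 38.2% and 19.0% of the members and in 2.16% to 6.43% of excitatory nuclei. With each nucleus thinned to 1000 UMIs the shares were 8.33%, 11.2%, 20.0%, 15.5% and 8.70%, against 0.29% or fewer of excitatory nuclei.

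**Figure D1:**
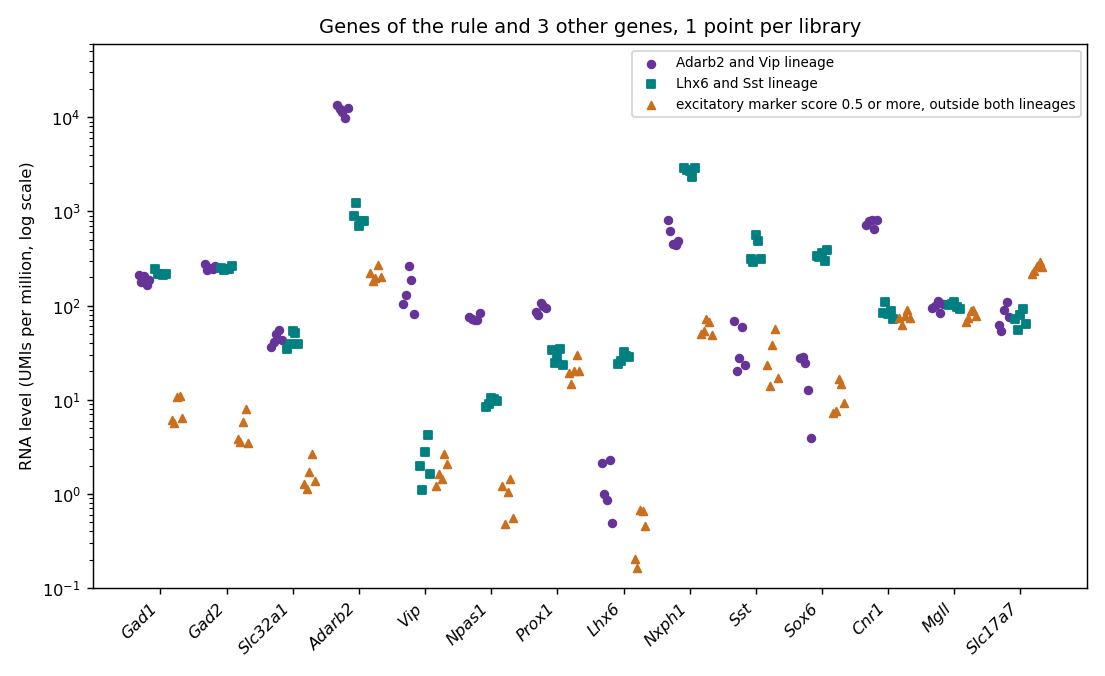
RNA level in CPM (log axis) of the 11 genes of the rule and of Cnr1, Mgll and Slc17a7, with 1 point per library for the members, the Lhx6 and Sst lineage and excitatory nuclei. Cnr1, which the rule did not name, sits between 651 and 806 CPM in the members and at or below 109 CPM in the other nuclei.

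Beyond the genes of the rule, the RNA furthest above the Lhx6 and Sst lineage included that of Rgs12, a regulator of G-protein signalling (112 to 149 against 8.12 to 11.2 CPM), and Cnr1 (651 to 806 against 71.5 to 109 CPM). Syt6, a synaptotagmin, Cxcl14, a chemokine, and Cadps2, which primes dense-core vesicles, followed with median log2 ratios of 3.09, 2.72 and 2.53. Those furthest below included Lypd6 (2.92 to 8.92 against 45.4 to 56.3 CPM), Moxd1 (1.95 to 8.97 against 36.7 to 59.3 CPM), Nek7 and the laminin gene Lama4. These ratios come from the contrast that chose the members and carry no test.

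Promoter accessibility took no part in choosing the members and was tested between the lineages. Transposase cut sites in peaks within 1000 bases of a gene start were summed per lineage and library, and 15986 promoters were compared with edgeR's quasi-likelihood test, the library as a block. After Benjamini-Hochberg adjustment 108 promoters (0.676%) were more accessible in the members and 89 (0.557%) were less accessible. The number called, 197 in all, was 110 without wild type, 104 without 5xFAD, 99 without the astrocyte-labelled library, 121 without the global-labelled library and 65 with DESeq2. An alternative limited the members to interneuron-led nuclei and the Lhx6 and Sst lineage to nuclei with an excitatory marker score below 0. It called 318 promoters, but these held only 58 of the 108 higher and 34 of the 89 lower promoters.

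Of the lineage genes, the Adarb2 promoter had 25.3, 31.1, 42.2, 42.7 and 49.4 CPM of the cut sites in promoter peaks in the members and 17.98, 23.8, 19.0, 22.9 and 19.3 in the Lhx6 and Sst lineage. The ranges did not overlap, and the log2 ratio was 0.89 (SE 0.18, n = 5 libraries, higher in 5 of 5; adjusted p = 0.00122 by edgeR's quasi-likelihood test with Benjamini-Hochberg adjustment). Sp8 (chr12:118846329-118852576), a zinc-finger transcription factor of caudal ganglionic eminence interneurons, had 38.9, 28.8, 33.9, 13.8 and 23.0 in the members and 10.1, 10.9, 6.92, 8.07 and 5.32 in the Lhx6 and Sst lineage. Its log2 ratio was 1.72 (SE 0.26, higher in 5 of 5; edgeR's quasi-likelihood test with Benjamini-Hochberg adjustment, adjusted p = 5.45e-06), again without overlap. Npas1 (chr7:16455721-16477728) stood at 1.03 (SE 0.25, higher in 5 of 5; adjusted p = 0.00982 by edgeR's quasi-likelihood test), a call that did not hold with DESeq2, without the library block or without 5xFAD, the neuron-labelled or the global-labelled library. Prox1 stood at 0.50, with an adjusted p of 0.248 in edgeR's test. Sox6, a gene of the Lhx6 side of the rule, stood at −0.315 and was not called (adjusted p = 0.383 in edgeR's test). Its promoter was higher in the members in 1 library. Gad1 and Gad2, which both lineages use, stood at −0.06 and −0.21, with adjusted p of 0.94 and 0.754 in edgeR's test.

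Among genes the rule did not name, the Cxcl14 promoter (chr13:56288643-56296551) had 37.95, 44.3, 22.1, 26.8 and 24.7 CPM in the members and 7.01 to 15.3 in the Lhx6 and Sst lineage. Its log2 ratio was 1.52 (SE 0.23, higher in 5 of 5; edgeR's quasi-likelihood test with Benjamini-Hochberg adjustment, adjusted p = 6.12e-06). The Cnr1 promoter (chr4:33924593-33948831) had 56.02, 83.2, 64.4, 67.3 and 85.6 in the members and 43.6, 52.3, 56.2, 55.2 and 40.9 in the Lhx6 and Sst lineage. Members were higher in 5 of 5 libraries although the ranges overlapped slightly, with a log2 ratio of 0.52 (SE 0.13; edgeR's quasi-likelihood test with Benjamini-Hochberg adjustment, adjusted p = 0.0124). That call did not hold with DESeq2 or without the 5xFAD or the global-labelled library. The Mgll promoter (chr6:88724412-88828360) stood at −0.03, with an adjusted p of 0.972 in edgeR's test.

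Listed promoters past the threshold also included those of Pnoc, the nociceptin precursor (0.66, higher in 4 of 5), and Nfib, a transcription factor (0.43, higher in 5 of 5). Sp9, a transcription factor related to Sp8, was less accessible (−0.84, lower in 5 of 5). That call did not hold with the members limited to interneuron-led nuclei, with DESeq2 or without the library block. It also did not hold without the wild type, 5xFAD or global-labelled library. The 8 furthest on each side included Ankub1 (2.02) and Cd180 (1.65) above and Itih2 (−2.64), Klrb1a (−2.60) and Ch25h (−1.79) below, and the Ch25h peaks were shared with Gm26902. Itih2 and Klrb1a lay near the floor, with means of 1.44 and 0.90 CPM in the members against 8.96 and 6.14 CPM in the Lhx6 and Sst lineage. Crhbp, the binding protein of corticotropin-releasing hormone, stood at −1.26, Moxd1 at −1.56 and Lypd6 at −0.70, each lower in 5 of 5 libraries. Other genes far apart in RNA between the lineages had promoters that were not called. Rgs12 stood at 0.186 and Cadps2 at 0.714, with adjusted p of 0.643 and 0.096 in edgeR's test. Megf10 stood at 0.199 and Eya4 at −0.184, with adjusted p of 0.896 and 0.854 in the same test. Lineage transcription factors had 3 of 16 tested promoters more accessible and 1 less. Cck and Sncg type markers had 2 of 5 more accessible, those of Cnr1 and Trp53i11. None of the 5 Vip type, 7 Lamp5 and Id2 type or 3 Lhx6 and Sst lineage marker promoters tested was called. At the shares of all promoters called, that says little about these lists. Of 6 dentate granule markers 1, C1ql2, was also more accessible (0.79, SE 0.21, higher in 5 of 5; adjusted p = 0.0292 by edgeR's quasi-likelihood test), and the part of granule cell chromatin in the members was not tested. None of the 14 GABA receptor or 15 glutamate receptor promoters was called, which beside 0.676% and 0.557% of all promoters says nothing particular about these lists.

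**Figure D2:**
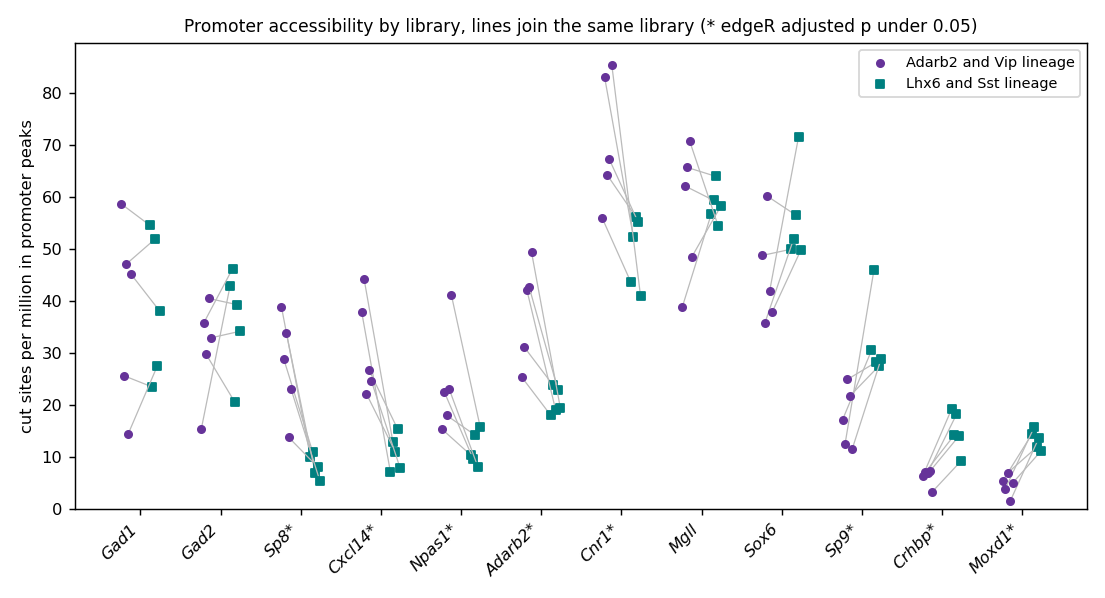
CPM of the cut sites in promoter peaks (y axis) of 12 genes, with circles for the members, squares for the Lhx6 and Sst lineage and a line joining both sums of each library. Sp8, Cxcl14, Npas1, Adarb2 and Cnr1 are higher in the members in all 5 libraries, and Sp9, Crhbp and Moxd1 are lower in all 5. Sox6, which was not called, is higher in the members in 1 library.

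The sub-clusters are described by their leading genes, which is no test. Sub-cluster 1 was Vip-like, led by Vip at 1400 CPM against 61.5 CPM in the other members, with the peptide gene Tac2 and the receptor gene Grpr. Sub-cluster 3 (66 nuclei) was Cck and Sncg-like, led by Slc17a8, the vesicular glutamate transporter 3, at 239.3 against 23.8 CPM. Sub-cluster 5 (60 nuclei) was Lamp5-like, with Lamp5, Reln, Kit and Sv2c, and had Nxph1 at 2249 CPM. Sub-clusters 4 (64 nuclei; Cpne5, Syt6, Cxcl14), 6 (56 nuclei; Thsd7b, Thsd7a, Grin3a) and 7 (50 nuclei; Col5a2, Ndnf, Reln) were interneuron-led and were given no type name.

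The other 6 sub-clusters were not interneuron-led. Sub-cluster 0 (162 nuclei) was led by Hs3st4, Tshz2 and Sv2b, had a median of 41470 UMIs, and 57.4% of its nuclei had both Xist and Y-linked UMIs. Sub-cluster 2 (67 nuclei) was led by Glis3 and Trpc6, both dentate granule markers, with Bdnf. Sub-cluster 9 (30 nuclei) was led by Crispld1, Pde11a and Glis3, and 66.7% of its nuclei had both Xist and Y-linked UMIs. Sub-cluster 8 (40 nuclei) was led by Chrm2, sub-cluster 10 (25 nuclei) by Rarb, Foxp2 and Meis2, and sub-cluster 11 (19 nuclei) by Cpa6, Prdm16 and Ano2. These genes recur among the differences between libraries.

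The Vip-like sub-cluster held 13.3%, 14.2%, 20.0%, 16.3% and 12.5% of the members, with overlapping intervals (7.82 to 20.8 in wild type, 14.6 to 26.3 in the astrocyte-labelled library). Sub-cluster 2 held 14, 4, 20, 14 and 15 nuclei, with 2.99% of the members in 5xFAD (0.82 to 7.47). Sub-cluster 10 held 0, 3, 6, 0 and 16 nuclei, most of them from the global-labelled library.

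**Figure D3:**
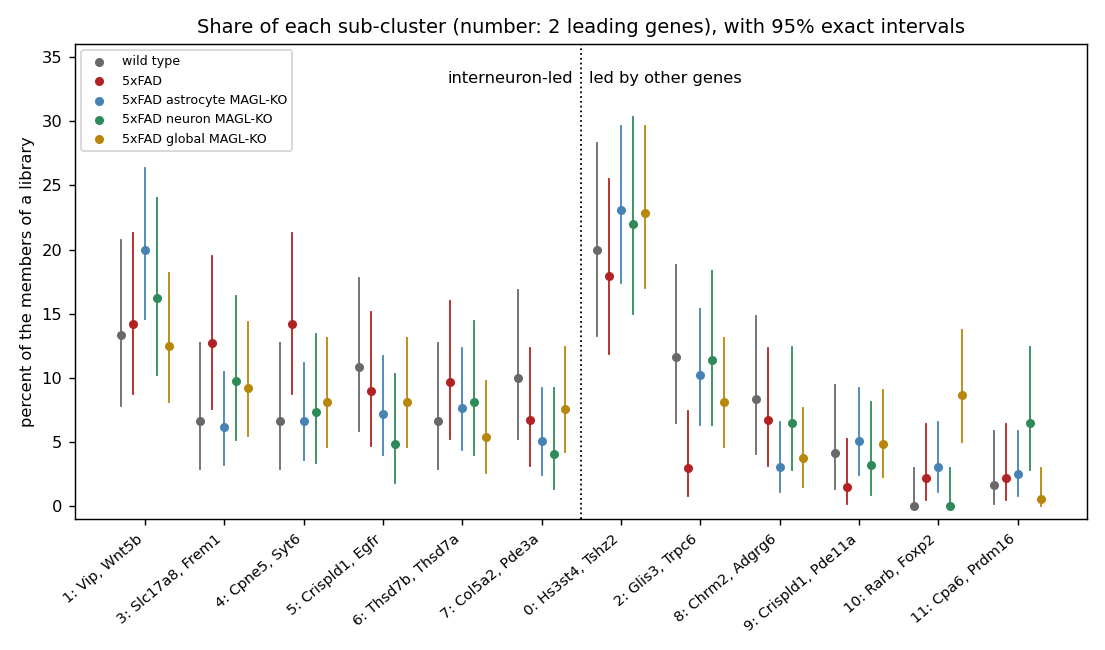
Percent of a library's members in each of the 12 sub-clusters, with exact 95% intervals, the 6 interneuron-led ones left of the dotted line. The intervals of the 5 libraries overlap in each interneuron-led sub-cluster, and sub-cluster 10 stands at 8.70% in the global-labelled library and at 0 in wild type and the neuron-labelled library.

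Mgll is the gene the knockouts target. Over all members it had 93.8, 100.1, 111, 83.3 and 104 CPM, against 66.4 to 89.1 CPM in excitatory nuclei. It was not lower in the global-labelled library than in 5xFAD, and since the sources used here do not give the deleted part of the gene, this level may not report the deletion. In interneuron-led nuclei Mgll had 89.6, 132, 125, 79.4 and 123 CPM. There the neuron-labelled library stood at a log2 ratio of −0.70 to 5xFAD (interval −1.04 to −0.35), the astrocyte-labelled one at −0.08 (−0.34 to 0.18) and the global-labelled one at −0.10 (−0.36 to 0.17), while 5xFAD stood at 0.53 to wild type (0.22 to 0.84).

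Mgll differed between the types. Lamp5-like nuclei had 166, 237, 266, 63.6 and 239.3 CPM, the neuron-labelled value resting on 5 UMIs in 6 nuclei (20.6 to 148). Cck and Sncg-like nuclei had 203, 212, 194, 142 and 201 CPM, with intervals that overlapped in all 5 libraries. Vip-like nuclei had 83.9 to 115 CPM, also with overlapping intervals. In sub-cluster 4 wild type had 11.8 CPM from 2 UMIs (1.43 to 42.6) and 5xFAD 112 CPM (85.4 to 144), and in sub-cluster 6 no library was above 30.6 CPM. In sub-cluster 7 wild type had 4.43 CPM from 1 UMI (0.11 to 24.7), 5xFAD 50.05 CPM (24.98 to 89.6) and the MAGL-KO libraries 44.6 to 70.2 CPM.

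Cnr1 had 722, 785, 806, 651 and 804 CPM over all members, lowest in the neuron-labelled library. By sub-cluster its level is a description, since Cnr1 was among the markers that named sub-cluster 3. Among the 6 interneuron-led sub-clusters, Cck and Sncg-like nuclei were highest in each library, at 1787, 2518, 1980, 2416 and 2275 CPM, followed by sub-cluster 4 at 1131 to 1546 CPM. Sub-clusters 2 and 9, which were not interneuron-led, had 0 to 164 and 69.4 to 152 CPM. Lamp5-like nuclei had the lowest value of these 6 in each library, at 257 to 537 CPM, but their intervals overlapped those of Vip-like nuclei in wild type and 5xFAD and those of sub-cluster 6 in the 3 MAGL-KO libraries. In Vip-like nuclei Cnr1 had 480, 369, 769, 720 and 806 CPM, and the 3 MAGL-KO libraries (lowest bound 617) lay above wild type (398 to 574) and 5xFAD (298 to 452). Of 11 endocannabinoid genes 10 were measured. Over all members their median log2 ratios were −0.09 for 5xFAD to wild type and 0.16, 0.20 and 0.13 for the MAGL-KO libraries to 5xFAD, beside 0.00, 0.10, 0.07 and 0.01 over all genes. In interneuron-led nuclei they were 0.11, 0.042, 0.16 and 0.03, with the sign for 5xFAD turned.

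**Figure D4:**
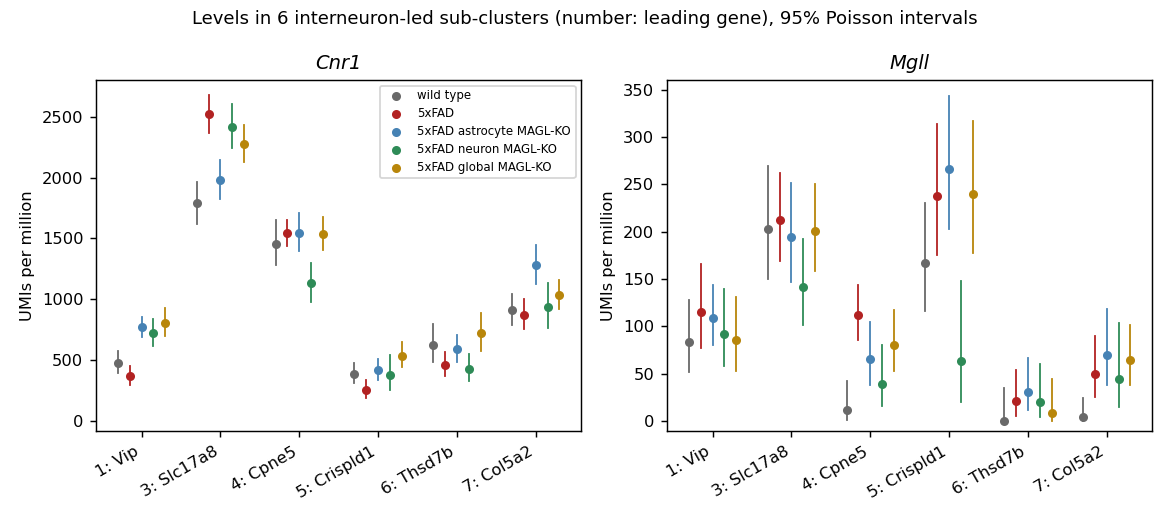
Cnr1 and Mgll in CPM in the 6 interneuron-led sub-clusters, 1 point per library with 95% Poisson intervals. Cnr1 is highest in sub-cluster 3, at 1787 to 2518 CPM, and Mgll is highest in sub-clusters 3 and 5 in the libraries other than the neuron-labelled one.

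Between 5xFAD and wild type, genes with at least 100 UMIs over both libraries were compared after adding 5 CPM, which draws the ratios of low genes toward 0. Of 7197 genes 65 (0.903%) were at least 1.5-fold higher in 5xFAD and 41 (0.57%) at least 1.5-fold lower. Genes of the lists needed only 10 UMIs over the 5 libraries in members. In all 4 comparisons the shares of all genes set beside the lists rest on the threshold of 100 UMIs, which some list genes did not reach. Thy1 (chr9:44043384-44048579), a surface glycoprotein of neurons whose promoter drives the 5xFAD transgenes, had 44.6, 112, 142, 218 and 125 CPM. All 4 libraries on the 5xFAD background were above wild type, and the log2 ratio of 5xFAD to wild type was 1.24 (0.99 to 1.49), with 1.13 in interneuron-led nuclei, 1.37 in the Lhx6 and Sst lineage and 2.06 in excitatory nuclei. Whether these UMIs came from the endogenous gene or from transgene sequence cannot be told apart in these counts.

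In wild type 48.3% of the members had only Xist and 27.5% only Y-linked UMIs, and in 5xFAD 26.9% and 53.0%. In the MAGL-KO libraries these shares were 40.5% and 33.3%, 70.7% and 10.6%, and 51.6% and 28.3%, with only 13 Y-linked-only nuclei in the neuron-labelled library. Many ratios differed between both kinds of nuclei, and examples are given beside the results.

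Immediate early genes, which neurons switch on after activity, had lower levels in 5xFAD for 13 of 16 genes over all members, beside 3521 of 7197 over all genes. Of them 5 were past 1.5-fold lower (0.57% of all genes) and none higher, and the median log2 ratio was −0.42 against 0.00 over all genes. Btg2 (51 UMIs in wild type and 24 in 5xFAD) and Egr1 (37 and 20) were below the 100 UMIs asked of all genes. Bdnf, a growth factor, had 47.96 CPM in wild type and 15.9 in 5xFAD, the nuclear receptor Nr4a2 26.1 and 7.21, and Nr4a3 49.2 and 22.9. In interneuron-led nuclei the median was 0.11, but these genes were scarce there. Bdnf had 0.83 and 1.1 CPM, Nr4a2 0.83 and 2.76 CPM and Nr4a3 15.8 and 13.8 CPM in wild type and 5xFAD. At such levels the added 5 CPM holds the ratio of Bdnf and Nr4a2 near 0, so it does not show whether they differed. The list's median was −1.04 in members with only Xist and 0.31 in those with only Y-linked UMIs. Bdnf stood at −2.86 and −1.05 in these, Nr4a2 at −2.39 and 1.04, and Nr4a3 at −2.46 and 1.02. Dentate granule markers, all 6 detected, summed to 303 CPM in wild type and 158 in 5xFAD over all members and to 34.8 and 28.7 CPM in interneuron-led nuclei. The part of granule cell RNA, and of sub-cluster 2 with its 14 and 4 nuclei, in the lower levels of Bdnf and of Trpc6 (−0.93 over all members) was not tested further.

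Apoe, the lipid carrier made mainly by glia, had 15.4, 46.5, 25.5, 25.1 and 10.2 CPM, highest in 5xFAD, where 51 of its 187 UMIs lay in 1 nucleus. Its log2 ratio of 5xFAD to wild type was 1.34 (0.98 to 1.69), and it was 2.25 in interneuron-led nuclei and 0.25 in excitatory nuclei. It was −0.038 in members with only Xist and 1.97 in those with only Y-linked UMIs. The 6 astrocyte markers, all detected, summed to 280 and 286 CPM in these libraries over all members and to 168 and 319 CPM in interneuron-led nuclei, and their part in Apoe was not tested. Il1rapl2, a synaptic adhesion gene, had 289.9, 111, 186, 127 and 132 CPM, highest in wild type, where 29.1% of its UMIs lay in 1 nucleus. Its log2 ratio was −1.34, and −2.05 in interneuron-led nuclei, but −0.054 in members with only Xist against −1.70 in those with only Y-linked UMIs. Reln (chr5:21884454-22344702), the extracellular glycoprotein of Lamp5 and Ndnf types, had 697, 434, 452, 316 and 601 CPM. Its log2 ratio of 5xFAD to wild type was −0.68 (−0.77 to −0.59), and −0.87 in interneuron-led nuclei.

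Sst, a gene of the rule and so given as a description, stood at −1.52 (−2.19 in interneuron-led nuclei), with 82 of its 221 wild type UMIs in 1 nucleus. It was found in about the same share of excitatory nuclei of wild type and 5xFAD, but at a lower CPM there than in the members. It stood at −0.18 in members with only Xist and at −2.51 in those with only Y-linked UMIs. Eya4 stood at 1.13 (2.11), with 16 of 24 wild type UMIs in 1 nucleus. Of the peptide genes, Crh stood at 0.80 (0.29) and Cartpt, at under 5 CPM, at −0.79 (−0.26). Tll1, Rarb and Tmem255a stood at 1.09, 1.07 and 1.06, and at 0.43, 0.92 and 0.50 in interneuron-led nuclei, with Tll1 at 1.06 and −0.75 and Rarb at 2.66 and 1.35 in members with only Xist and only Y-linked UMIs. Slc17a8 stood at −0.65 over all members, at 0.52 in interneuron-led nuclei, and at 1.84 and −1.79 in members with only Xist and only Y-linked UMIs. The lists of GABA synthesis and transport (5 genes), GABA receptors (14), glutamate receptors (17) and lineage transcription factors (19) had no gene past 1.5-fold, which at the shares of all genes says little about these lists. The first list holds Gad1, Gad2 and Slc32a1 and the last Npas1, Prox1, Sox6 and Lhx6. These are genes of the rule, so the choice of members bears on their levels.

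The MAGL-KO libraries were each compared with the same 5xFAD library, and the 3 comparisons share its counting error. The astrocyte-labelled library had 400 of 8177 genes (4.89%) at least 1.5-fold higher and 55 (0.673%) lower, and the neuron-labelled library had 394 of 7767 (5.07%) higher and 101 (1.3%) lower. Scaled by median-of-ratios size factors the splits were 231 higher and 118 lower, and 261 higher and 173 lower. The median of all genes was then −0.03 and −0.03, in place of 0.10 and 0.07. With nuclei thinned to 1000 UMIs, where only 536 and 399 genes had enough UMIs, the splits were 18 higher and 18 lower, and 14 higher and 19 lower. In the global-labelled library 57 of 7585 genes (0.751%) were higher and 52 (0.686%) lower. Of all genes compared, 5426 of 8177 had a ratio above 0 in the astrocyte-labelled library, 4705 of 7767 in the neuron-labelled and 3961 of 7585 in the global-labelled one.

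Nuclear-encoded respiratory chain genes had higher levels in the astrocyte-labelled library for 25 of 25 genes, beside 5426 of 8177 over all genes, with 6 past 1.5-fold (4.89% of all genes) and a median log2 ratio of 0.43. In the neuron-labelled library 22 of 25 were higher, beside 4705 of 7767, with 4 past 1.5-fold (5.07% of all genes) and a median of 0.32. The global-labelled library had 12 higher and 13 lower and a median of −0.01. Atp5b, a subunit of ATP synthase, had 49.2, 42.5, 79.5, 54.3 and 46.0 CPM, and Sdhb, a subunit of succinate dehydrogenase, had 27.4, 23.6, 38.0, 42.0 and 32.9 CPM. With size factors the medians were 0.33 and 0.22, beside −0.03 and −0.03 over all genes. They were 0.30 and 0.27 in members with only Xist and 0.38 and 0.29 in those with only Y-linked UMIs. The list stood at 0.40 and 0.36 in the Lhx6 and Sst lineage and at 0.43 and 0.38 in excitatory nuclei of the same libraries, close to the values in the members.

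Cytosolic ribosomal protein genes had a like order. In both the astrocyte-labelled and the neuron-labelled library 30 of 30 were higher, beside the 5426 of 8177 and 4705 of 7767 genes above, and 12 and 6 of them were past 1.5-fold, beside 4.89% and 5.07% of all genes. The medians were 0.53 and 0.53 over all members, 0.43 and 0.44 with size factors and 0.40 and 0.46 in interneuron-led nuclei. The global-labelled library had 10 higher and 20 lower and a median of −0.08. Rpl6, of the large subunit, had 44.9, 33.04, 69.1, 49.2 and 42.9 CPM, and Rpsa, of the small subunit, had 22.1, 16.4, 33.9, 33.6 and 21.4 CPM. The list stood at 0.49 and 0.44 in the Lhx6 and Sst lineage and at 0.52 and 0.49 in excitatory nuclei.

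Of the Vip type markers, the 6 other than Vip are counted here, since Vip is a gene of the rule. In the astrocyte-labelled library 4 of 6 were past 1.5-fold higher (4.89% of all genes) and in the neuron-labelled library 2 of 6 (5.07%), with medians of 0.65 and 0.24. Calb2, with 15 UMIs in 5xFAD and 39 in the astrocyte-labelled library, was below the 100 UMIs asked of all genes. In interneuron-led nuclei the medians were 0.87 and 0.72, and in the Lhx6 and Sst lineage 0.048 and 0.073. In that lineage Tac2 had only 0.73 to 1.95 CPM and Htr3a 1.25 to 2.01 CPM. There the added 5 CPM holds the ratio of these genes near 0, so it does not show whether they differed. In members with only Xist the medians of the list were 1.35 and 0.79, and in those with only Y-linked UMIs 0.39 and 0.10. Vip itself, as a description, stood at 1.01 (0.87 to 1.15), 0.55 (0.39 to 0.70) and −0.64 (−0.82 to −0.45) to 5xFAD in the 3 MAGL-KO libraries, and at 1.35, 1.27 and −0.24 in interneuron-led nuclei, where its levels were 193, 217, 558, 529 and 183 CPM. Tac2, the neurokinin B precursor, had 15.99, 21.9, 50.1, 25.1 and 25.1 CPM. Htr3a, the ionotropic serotonin receptor, had 19.1, 18.6, 39.95, 33.1 and 28.7 CPM, and Penk, the enkephalin precursor, had 24.3, 23.4, 40.4, 41.3 and 30.2 CPM. The Vip-like sub-cluster held 39 nuclei in the astrocyte-labelled library and 19 in 5xFAD, and Vip had 703, 1366, 1636, 2010 and 1125 CPM within it, a description since Vip helped to define it. Outside it, sub-cluster 2 held 531 CPM of Vip in the astrocyte-labelled and 209.5 CPM in the neuron-labelled library and no Vip UMI in the other libraries. In the astrocyte-labelled library and 5xFAD, Vip had 232 and 27.5 CPM in sub-cluster 3, 131 and 18.3 in sub-cluster 4, and 253 and 107 in sub-cluster 5. Sub-clusters 7 and 8 were also higher in the astrocyte-labelled library, with 16 and 36 Vip UMIs against 0 in 5xFAD. Sub-cluster 0 was lower, with overlapping intervals. Sub-cluster 9 was higher and sub-clusters 6, 10 and 11 lower, but these held at most 6 Vip UMIs in either library.

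Peptides and receptors outside that list included Cck, cholecystokinin, which had 153, 141, 259, 208 and 176 CPM and was past 1.5-fold in the astrocyte-labelled library (0.85, and 0.59 in interneuron-led nuclei). Over the 11 neuropeptide and granin genes that were neither in the rule nor Vip type markers the medians were 0.030, −0.055 and 0.076. Of them Cck was the only one past 1.5-fold higher in these 3 comparisons (4.89% of all genes in the astrocyte-labelled library). The only one past 1.5-fold lower was Crh, at −0.71 in the neuron-labelled library (1.3% of all genes). Htr4, a serotonin receptor, stood at 0.60 and 0.82 in the astrocyte-labelled and neuron-labelled libraries (1.18 and 1.07 in interneuron-led nuclei), and Htr2a at −0.82 in the latter (−0.88). Chrm2, a muscarinic receptor that led sub-cluster 8, stood at −0.87 in the astrocyte-labelled library over all members and at 0.81 in its interneuron-led nuclei. The transcription factors Dlx1 and Dlx2 stood at 0.70 and 0.68 there (0.97 and 0.52 in interneuron-led nuclei). Of the 19 lineage transcription factors, 2 were past 1.5-fold lower in the neuron-labelled library (1.3% of all genes) and 1 higher (5.07%). In the global-labelled library 1 was lower (0.686%) and none higher. The lowest in both was Sox6, a gene of the rule, at −0.915 and −1.916. In 5xFAD, 49 of its 115 UMIs lay in 1 nucleus. Sox6 had 50 UMIs in 9 nuclei of the neuron-labelled library and 16 UMIs in 4 nuclei of the global-labelled library. In interneuron-led nuclei of the latter it stood at 0.014. The other lower gene in the neuron-labelled library was Maf, with 445 UMIs against 759 in 5xFAD. The higher gene in that library was Dlx2, with 36 UMIs against 18 in 5xFAD, fewer than were asked of all genes. Of 14 GABA receptor genes Gabrg1 alone was past 1.5-fold (0.61 in the neuron-labelled library, 0.71 in its interneuron-led nuclei), but it stood at −0.04 without members that had both Xist and Y-linked UMIs, and of 17 glutamate receptor genes none was, which at the shares of all genes says little about these lists.

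Spock1 (chr13:57421195-57908332), a proteoglycan, had 439, 506, 392.2, 173 and 452 CPM in the members. The neuron-labelled library alone was low, at a log2 ratio of −1.52 (−1.65 to −1.40) to 5xFAD, with −1.25 in interneuron-led nuclei, −1.62 in the Lhx6 and Sst lineage and −1.27 in excitatory nuclei. Ndn, the imprinted gene necdin, had 4.30, 6.46, 28.7, 22.8 and 14.4 CPM and was found in 11, 22, 87, 49 and 48 members. Its log2 ratios were 1.56, 1.28 and 0.76 in the members, 1.73, 0.97 and 0.78 in interneuron-led nuclei and 1.39, 0.95 and 0.62 in the Lhx6 and Sst lineage. With nuclei thinned to 1000 UMIs they turned to −1.19, −0.25 and −0.38, at sums of 123000 to 195000 UMIs a library, where the Ndn levels above come to only a few UMIs. Aldoa, the glycolytic aldolase, had 29.8, 29.1, 73.2, 52.5 and 29.7 CPM, and 29.0, 30.3, 74.97, 52.6 and 36.8 CPM in interneuron-led nuclei. Ppp1r1a, a phosphatase inhibitor, had 18.5, 14.9, 40.4, 44.1 and 28.99 CPM, with log2 ratios of 0.92 and 1.35 in interneuron-led nuclei of the astrocyte-labelled and neuron-labelled libraries. Ndn, Aldoa and Ppp1r1a were each higher in the astrocyte-labelled and neuron-labelled libraries than in the others. Other neurons of these libraries had like ratios. In the astrocyte-labelled library Aldoa stood at 0.942 in the Lhx6 and Sst lineage and 1.016 in excitatory nuclei, and Ppp1r1a at 0.815 and 0.825. In the neuron-labelled library Ppp1r1a stood at 1.07 and 0.806. Ndn stood at 0.889 and 0.709 in excitatory nuclei of the astrocyte-labelled and neuron-labelled libraries.

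Ankfn1 had 15.7, 30.1, 21.2, 19.7 and 5.12 CPM over all members, a log2 ratio of −1.79 in the global-labelled library. In interneuron-led nuclei it had 22.4, 30.3, 6.20, 7.65 and 3.80 CPM, low in all 3 MAGL-KO libraries. Cfap54, a cilia gene, had 81.5, 73.5, 33.7, 31.3 and 35.1 CPM, low in all 3 MAGL-KO libraries, and stood at −0.97 in the global-labelled one. There it stood at −0.42 in interneuron-led nuclei (−0.85 to 0.00), at −1.44 in the Lhx6 and Sst lineage and at −1.30 in excitatory nuclei. Smoc2, a matricellular protein, had 28.6, 15.4, 40.8, 36.6 and 41.9 CPM, lowest in 5xFAD, and only 1.65 to 8.87 CPM in interneuron-led nuclei. Apoe stood at −1.76, against the high 5xFAD value given above.

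Several large ratios belonged to leading genes of sub-clusters that were not interneuron-led. Glis3 had 132, 67.8, 165, 177 and 184 CPM and stood at 1.22, 1.32 and 1.37 to 5xFAD, with 0.42, 0.23 and 0.93 in interneuron-led nuclei. In the global-labelled library it stood at 2.74 in members with only Xist and 0.67 in those with only Y-linked UMIs. Rarb and Rgs9, leading genes of sub-cluster 10, stood at 1.15 and 1.23 in the global-labelled library and at −0.27 and 0.34 in its interneuron-led nuclei. Foxp2, of the same sub-cluster, stood at −1.37 in the neuron-labelled library, which held none of its nuclei, and at −1.96 in interneuron-led nuclei. In the astrocyte-labelled and global-labelled libraries Foxp2 stood at 0.93 and 0.95 over all members and at −1.41 and −1.62 in interneuron-led nuclei, the opposite sign. Ano2, of sub-cluster 11, stood at 1.47 in the neuron-labelled library and at −0.15 in its interneuron-led nuclei. Npsr1, the neuropeptide S receptor, stood at −1.71 and −2.19 in the astrocyte-labelled and neuron-labelled libraries but at −0.365 (−1.02 to 0.29) and −1.43 in interneuron-led nuclei, with 0.11 in astrocyte-labelled members that had only Y-linked UMIs, and 60.0% of its 5xFAD UMIs lay in 1 nucleus. Excitatory neuron markers had medians of 0.67 and 0.72 in these libraries over all members and 0.17 and 0.08 in interneuron-led nuclei. Their medians were 1.42 and 1.27 in members with only Xist and 0.088 and 0.38 in those with only Y-linked UMIs. Dentate granule markers had medians of 0.71, 0.88 and 0.54 in the 3 MAGL-KO libraries, beside 0.10, 0.07 and 0.01 over all genes. In interneuron-led nuclei their medians were 0.40, 0.35 and 0.37. Over all members 4, 5 and 3 of these 6 markers were past 1.5-fold higher, beside 4.89%, 5.07% and 0.751% of all genes. Their summed level was 158, 316, 351 and 316 CPM in 5xFAD and the MAGL-KO libraries over all members and 28.7, 58.2, 80.4 and 57.7 CPM in interneuron-led nuclei. The part of both marker lists in the other differences was not tested.

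**Figure D5:**
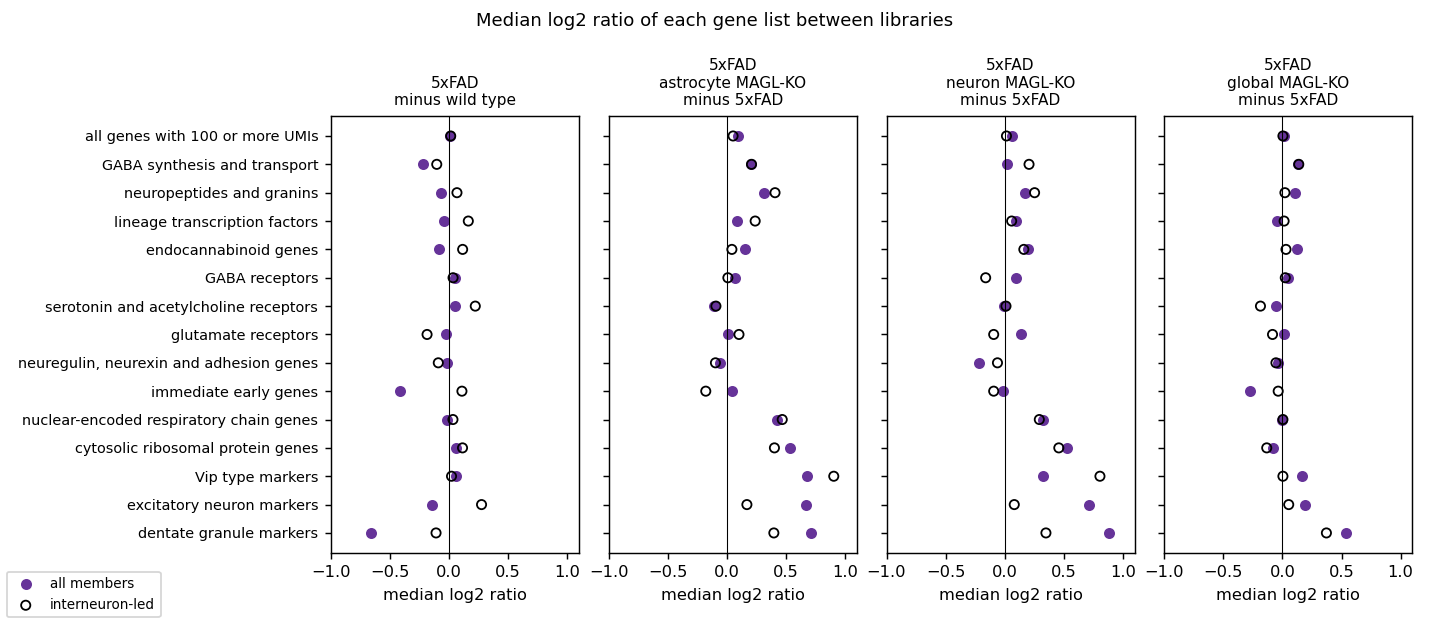
Median log2 ratio (x axis) of 14 gene lists and of all genes in the 4 comparisons, filled circles for all members and open circles for interneuron-led nuclei. Respiratory chain and ribosomal protein genes lie right of 0 for both in the astrocyte and neuron MAGL-KO panels, and the immediate early genes change sides in the 5xFAD panel, from −0.42 to 0.11.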

How the data were processed

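The members and the gene lists were chosen with earlier results of these data known. The authors deposited, per nucleus and library, UMI counts per gene and cut-site counts per peak, made with Cell Ranger ARC 2.0.0, Seurat and mm10 per the submitters' processing notes; aligner settings and filters are not given in the sources used here.

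Scores were means of standardised ln(1 + UMIs per 10000). Members' UMIs were summed per library and scaled to CPM. Promoter counts were tested with edgeR 4.0.16 (TMM normalization, filterByExpr, Benjamini-Hochberg threshold 0.05, the library as block because both lineages come from the same library); DESeq2 1.42.0 was an alternative. The edgeR fit and the ratios were tested on simulated data. Members were clustered with scanpy 1.11.5 (1500 genes, 20 components, 15 neighbours, Leiden resolution 0.6). A sub-cluster was interneuron-led when its 10 leading genes held no marker of another cell class and its median excitatory score was at most −0.6. Scrublet's automatic threshold was not usable. Intervals are 95%, exact Poisson for sums.

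Named were the genes of the rule, list genes past 1.5-fold with up to 4 examples a list, per comparison the 6 highest and 6 lowest ratios among genes whose CPM in members was at least 0.5 of that in all nuclei (no mitochondrial, Xist, Y-linked or unnamed gene models), and the 8 furthest promoters and RNA ratios per direction, of which examples are given. Positions follow GENCODE vM21 (99.6% of 32285 features found). Alternatives were other thresholds, pseudocounts, scaling, thinning, and subsets of nuclei.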

Additional observations from a re-analysis of the deposited data

Results flagged for a closer look

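Genes of the lists and those named by rank that were past 1.5-fold between libraries were also compared separately in members with only Xist UMIs and in members with only Y-linked UMIs. In 7 cases the log2 ratios of both kinds of nuclei had opposite signs, each past 1.5-fold, and the difference was not tested. They were picked from many ratios, and how many would differ so by counting error was not worked out. The nuclei with only Xist and only Y-linked UMIs numbered 58 and 33 in wild type and 36 and 71 in 5xFAD. In the neuron-labelled library they numbered 87 and 13. Over all members Nr4a2 had only 85 UMIs in wild type and 29 in 5xFAD. For 5xFAD against wild type, Tll1, a metalloprotease, stood at 1.06 in nuclei with Xist and at −0.75 in nuclei with Y-linked UMIs. Nr4a2 stood at −2.39 and 1.04, Nr4a3, a related nuclear receptor, at −2.46 and 1.02, and Slc17a8 at 1.84 and −1.79. Against 5xFAD, Il1rapl2 stood at 2.34 and −0.71 in the astrocyte-labelled library, Bdnf at 2.05 and −1.03 in the neuron-labelled library, and C1ql2 at 1.74 and −0.72 in the global-labelled library. In wild type 48.3% of the members had only Xist and 27.5% only Y-linked UMIs, and in 5xFAD 26.9% and 53.0%.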

How the results depend on the processing

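No paired analysis was possible because each genotype had 1 library, so the comparisons between genotypes have no replicate block; for the promoter test, which pairs both lineages of a library, the fit without the block called 93 promoters. DESeq2 called 65 promoters, and leaving out 1 library 99 to 144. Interneuron-led members against the Lhx6 and Sst lineage filtered by excitatory score, an alternative chosen after seeing the data, gave 318. A score threshold of 0.5 gave member shares of 3.97%, 4.37%, 4.98%, 5.06% and 4.22% in wild type, 5xFAD and astrocyte, neuron and global MAGL-KO, and 1.5 gave 1.69%, 1.80%, 2.23%, 2.05% and 1.81%. Genes past 1.5-fold in 5xFAD against wild type (106 of 7197 as reported) numbered 189 with a pseudocount of 1 CPM and 272 as a mean over nuclei. They were 13 of 398 after thinning and 174 of 5213 without nuclei with both Xist and Y-linked UMIs. In nuclei with only Xist or only Y-linked UMIs they were 224 of 2940 and 263 of 3510. Interneuron-led nuclei gave 164 of 4220, and a threshold of 50 UMIs gave 191. For astrocyte MAGL-KO (400 higher and 55 lower of 8177 as reported) they numbered 764 with 1 CPM and 36 of 536 after thinning. Y-linked-only nuclei gave 249 of 4157 and interneuron-led nuclei 269 of 4812. For neuron MAGL-KO (394 higher and 101 lower of 7767 as reported) they numbered 33 of 399 after thinning. Interneuron-led nuclei gave 296 of 4164, and a threshold of 50 UMIs gave 782. For global MAGL-KO (57 higher and 52 lower of 7585 as reported) they numbered 196 with 1 CPM and 334 as a mean over nuclei. They were 22 of 514 after thinning and 165 of 6007 without nuclei with both. Xist-only and Y-linked-only nuclei gave 375 of 3674 and 244 of 3841, and a threshold of 50 UMIs gave 190. Thinning and the subsets of nuclei compare fewer genes, so each number is to be read beside the genes compared. Other causes were not tested.

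The following changed sign. For 5xFAD against wild type, nuclei with only Xist gave −0.038 for Apoe and 1.84 for Slc17a8. Nuclei with only Y-linked UMIs gave 0.31 for the median of immediate early genes, −0.75 for Tll1, 1.04 for Nr4a2 and 1.02 for Nr4a3. Interneuron-led nuclei gave 0.11 for that median, 0.41 for Nr4a2, 0.066 for Bdnf, 0.66 for Btg2 and 0.52 for Slc17a8. Thinning gave −0.59 for Tmem255a and 1.32 for Btg2, and the mean over nuclei 0.063 for Slc17a8. For astrocyte MAGL-KO, nuclei with only Y-linked UMIs gave 0.11 for Npsr1, −0.71 for Il1rapl2, −0.17 for Bdnf and −0.10 for Calb2. Thinning gave −1.19 for Ndn, −0.30 for Btg2 and Rpl26 and −0.84 for Cox5a, and interneuron-led nuclei 0.81 for Chrm2 and −0.63 for Nr4a2. For neuron MAGL-KO, interneuron-led nuclei gave −0.15 for Ano2, −0.035 for Bdnf and −0.36 for Jun. Thinning gave −0.059 for the median of amyloid transgene-linked genes, −0.25 for Ndn, −1.32 for Dlx2, −0.60 for Jun and 0.12 for Kit. Nuclei with only Y-linked UMIs gave 0.25 for Tmem132c, −0.036 for Dlx2, −1.03 for Bdnf, −0.25 for Sdhb and −0.42 for Aldoa, and nuclei without both Xist and Y-linked UMIs gave −0.04 for Gabrg1. For global MAGL-KO, nuclei with only Xist gave 0.18 for the median of immediate early genes, 0.14 for Gpc6 and 0.12 for Nr4a3. Thinning gave 0.35 for Sox6, 1.06 for Nr4a3 and −0.38 for Ndn, interneuron-led nuclei −0.27 for Rarb and 0.014 for Sox6, and Y-linked-only nuclei −0.27 for Acvr1c.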
